A study of Mus musculus with 2 samples.

Results

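Lepr, the leptin receptor gene that marks reticular stromal cells of the bone marrow, was followed together with 9 genes of the fat cell programme, Adipoq, Lpl, Pparg, Cebpa, Cebpb, Apoe, Cd36, Fabp4 and Agt, in nuclei of young mouse marrow. The genes were chosen by name, 10 of the 32293 in the RNA table, for their place in leptin signalling, adipogenesis and lipid handling. For each of them the RNA, the detection in single nuclei and the accessibility of the peaks within 50 kb were measured.

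Cells carrying tdTomato were sorted from the femur marrow of Prrx1-cre; R26R-tdTomato mice (heterozygous for the tdTomato allele) at postnatal day 21, and about 15000 nuclei were loaded on the 10x Multiome platform, which reads RNA and open chromatin (ATAC) from the same nucleus. The distal growth plates and the proximal ends of the bones had been removed. Both sexes were pooled. There was 1 RNA library and 1 ATAC library of the same nuclei, no second genotype, age or treatment and no replicate, so nothing below is a test between animals. Prrx1-cre is active in the limb mesenchyme and labels its descendants, yet nuclei with blood and endothelial markers were present in the sorted material.

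Reticular cells of the marrow, also called Cxcl12-abundant reticular or leptin receptor-positive cells, wrap the sinusoids, make the niche factors Cxcl12 and Kitl and are a source of marrow adipocytes. In adipogenesis Cebpb acts early and induces Pparg and Cebpa, which then maintain each other and switch on genes of the mature fat cell such as Adipoq, Fabp4, Cd36 and Lpl. Macrophages, mural cells and endothelial cells use parts of the same lipid machinery.

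Nuclei were the barcodes with at least 500 UMIs (RNA molecules) outside mitochondrial genes and 1000 counts in ATAC peaks, which 4481 of 728634 barcodes met, with medians of 1698 UMIs, 33981 peak counts and 16.4% mitochondrial UMIs. A nucleus was placed in a gate when its UMIs of a marker list, none of which held any of the 10 genes, reached 2 times the number that free RNA at its depth would give, with at least 3 UMIs from 2 genes, and when it met no other gate. This placed 2064 nuclei. The reticular gate held 686, with 9 of 9 reticular markers detected and a median of 9 marker UMIs per nucleus, and Cxcl12 stood there at 2206 CPM (counts per 1000000 non-mitochondrial UMIs). These markers define the gate, so their levels describe it and are no separate evidence of its identity. All 9 were detected in free RNA too, and Vcam1 was at 1078 CPM in reticular and 1210 CPM in macrophage nuclei. The other stromal nuclei were 605, of the osteoblast and osteocyte gate (313), the mural gate (134), the tenocyte and periosteal fibroblast gate (119) and the chondrocyte gate (39), and the blood nuclei were 748, of the B-lymphoid (217), macrophage (207), granulocyte (168) and erythroid (156) gates. The endothelial gate held 25. Depth and mitochondrial share differed between the compared sides. Reticular nuclei had medians of 1410 UMIs and 9.39% mitochondrial UMIs, other stromal nuclei 3794 and 18.4%, and blood nuclei 1384 and 17.6%. Beyond the mitochondrial limit given at the end, the part of these differences in the ratios below was not tested. The mature adipocyte gate held 5 nuclei and was not compared, 2209 nuclei met no gate and 200 met several. Of the reticular nuclei, 151 lay at 2 to 3 times the free RNA level, and 131 further nuclei lay just outside the gate. The median reticular nucleus also held 7 UMIs of chondrocyte markers, 4 of osteoblast markers and 2 of erythroid markers, while the summed chondrocyte markers stood at 3786 CPM in reticular nuclei and 13465 CPM in free RNA, taken from 62739 barcodes with few UMIs and peak counts. Mature adipocyte markers were at 80.5 CPM in reticular nuclei with 5 of 11 detected, beside 176 CPM in free RNA, and Car3 gave 93 of their 109 UMIs. Car3 was at 562 CPM in osteoblast and osteocyte nuclei and 173 CPM in free RNA. The other 10 markers summed to 16 UMIs in reticular nuclei, 11.8 CPM (6.75 to 19.2), and to 3.35 CPM (2.47 to 4.45) in free RNA, a split made after seeing the data. Plin1 had 3 of these UMIs, and Cidec and Lep had 0. In the mural gate the chondrocyte markers summed to 14497 CPM, near the free RNA level, beside 5899 CPM of mural markers.

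Stretches of open chromatin that the accessibility results of Adipoq, Lpl, Pparg, Apoe and Agt turn on are shown first. Each is the 300 bases around the centre of a peak of the ATAC table, read from GRCm38 (mm10) on the plus strand, and each is, for its gene, the peak with the highest ratio of reticular to other stromal nuclei, except the Pparg peak upstream of the downstream start. Capitals mark matches to a searched motif: C/EBP (TTGCNNAA) or RUNX (TGTGGTT), each on either strand. They are motifs of the families of Cebpa and Cebpb and of the bone factor Runx2. A match is no evidence of binding, and EBF (CCCNNGGGA), FOX (TGTTTAC) and the PPAR direct repeat were searched as well on both strands.
Adipoq promoter peak, chr16:23146193-23146492, a stretch that ends before the gene start, which the peak itself spans: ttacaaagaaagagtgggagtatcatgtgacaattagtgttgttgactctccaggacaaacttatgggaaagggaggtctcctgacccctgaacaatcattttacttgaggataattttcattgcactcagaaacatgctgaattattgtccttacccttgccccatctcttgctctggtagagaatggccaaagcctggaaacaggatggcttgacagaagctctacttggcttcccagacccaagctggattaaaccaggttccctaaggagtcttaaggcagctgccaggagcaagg
Lpl upstream peak, chr8:68860796-68861095, intergenic and at -19545 bases from the gene start: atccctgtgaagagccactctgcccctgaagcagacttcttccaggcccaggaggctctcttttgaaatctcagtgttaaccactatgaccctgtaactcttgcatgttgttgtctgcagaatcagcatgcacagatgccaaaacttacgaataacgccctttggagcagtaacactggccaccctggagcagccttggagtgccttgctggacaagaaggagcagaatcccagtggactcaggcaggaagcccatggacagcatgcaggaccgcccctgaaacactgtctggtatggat
Pparg intron peak, chr6:115395925-115396224, 35124 bases into the gene: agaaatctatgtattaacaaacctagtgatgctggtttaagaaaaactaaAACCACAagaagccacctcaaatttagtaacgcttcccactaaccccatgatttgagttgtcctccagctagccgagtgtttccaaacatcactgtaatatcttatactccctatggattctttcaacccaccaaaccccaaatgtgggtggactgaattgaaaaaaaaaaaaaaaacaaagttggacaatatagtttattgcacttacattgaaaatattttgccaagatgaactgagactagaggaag
Pparg peak upstream of the downstream start, chr6:115420951-115421250, intronic and 60150 bases into the gene: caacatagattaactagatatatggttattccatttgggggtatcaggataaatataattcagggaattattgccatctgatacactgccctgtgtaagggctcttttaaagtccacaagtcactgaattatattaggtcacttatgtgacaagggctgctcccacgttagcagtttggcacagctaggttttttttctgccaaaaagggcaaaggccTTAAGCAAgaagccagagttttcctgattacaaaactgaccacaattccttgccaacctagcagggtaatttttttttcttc
Apoe downstream peak, chr7:19693475-19693774, intergenic and 5563 bases past the start of this minus-strand gene: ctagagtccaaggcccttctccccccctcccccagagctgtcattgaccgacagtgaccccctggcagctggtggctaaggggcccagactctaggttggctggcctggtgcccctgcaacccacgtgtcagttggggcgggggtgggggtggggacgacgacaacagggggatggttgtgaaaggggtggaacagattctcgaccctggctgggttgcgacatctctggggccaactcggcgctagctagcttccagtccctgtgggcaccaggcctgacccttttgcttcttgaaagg
Agt upstream peak, chr8:124571763-124572062, intergenic and at -2207 bases from the start of this minus-strand gene: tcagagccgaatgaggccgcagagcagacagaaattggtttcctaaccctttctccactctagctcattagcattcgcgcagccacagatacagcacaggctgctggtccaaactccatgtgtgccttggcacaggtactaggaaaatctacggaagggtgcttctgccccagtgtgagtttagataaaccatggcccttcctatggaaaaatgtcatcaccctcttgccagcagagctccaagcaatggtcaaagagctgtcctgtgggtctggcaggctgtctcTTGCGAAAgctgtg

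RNA was compared first. Lepr, Adipoq, Lpl and Agt were highest in reticular nuclei with no overlap of the counting intervals with any other gate, Cebpa and Cebpb were highest there but overlapped the next gate, and Pparg, Apoe, Cd36 and Fabp4 were highest elsewhere, in macrophage or endothelial nuclei. Values are counts summed over a gate as CPM with exact Poisson 95% intervals, and ratios are log2 ratios of these levels with 0.5 counts added to each side and exact conditional binomial 95% intervals. Intervals cover counting error only. A call of higher or lower needed a 2-fold ratio and 20 UMIs in the compared nuclei together. Against other stromal nuclei 9 of the 10 genes were called higher and 0 lower, where the same rule called 19.3% of 10764 genes higher and 10.5% lower. The median log2 ratio of the 10 genes was 3.04, and that of all genes tested 0.33. Against osteoblast and osteocyte nuclei alone all 10 were called higher (median 3.62), beside 30.4% of all genes. An upper estimate from erythroid and granulocyte genes gave free RNA a share of 39.4% in reticular and 21.2% in other stromal nuclei. With that share subtracted, the log2 ratios of the 9 genes called higher were each larger, from 2.36 (Cebpb) to 7.07 (Apoe), and 8 genes were called higher. The size of such ratios depends on what the subtraction leaves. Apoe was at 94.7 CPM in other stromal nuclei and 424 CPM in free RNA, so few of its counts were left there.

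**Figure D1:**
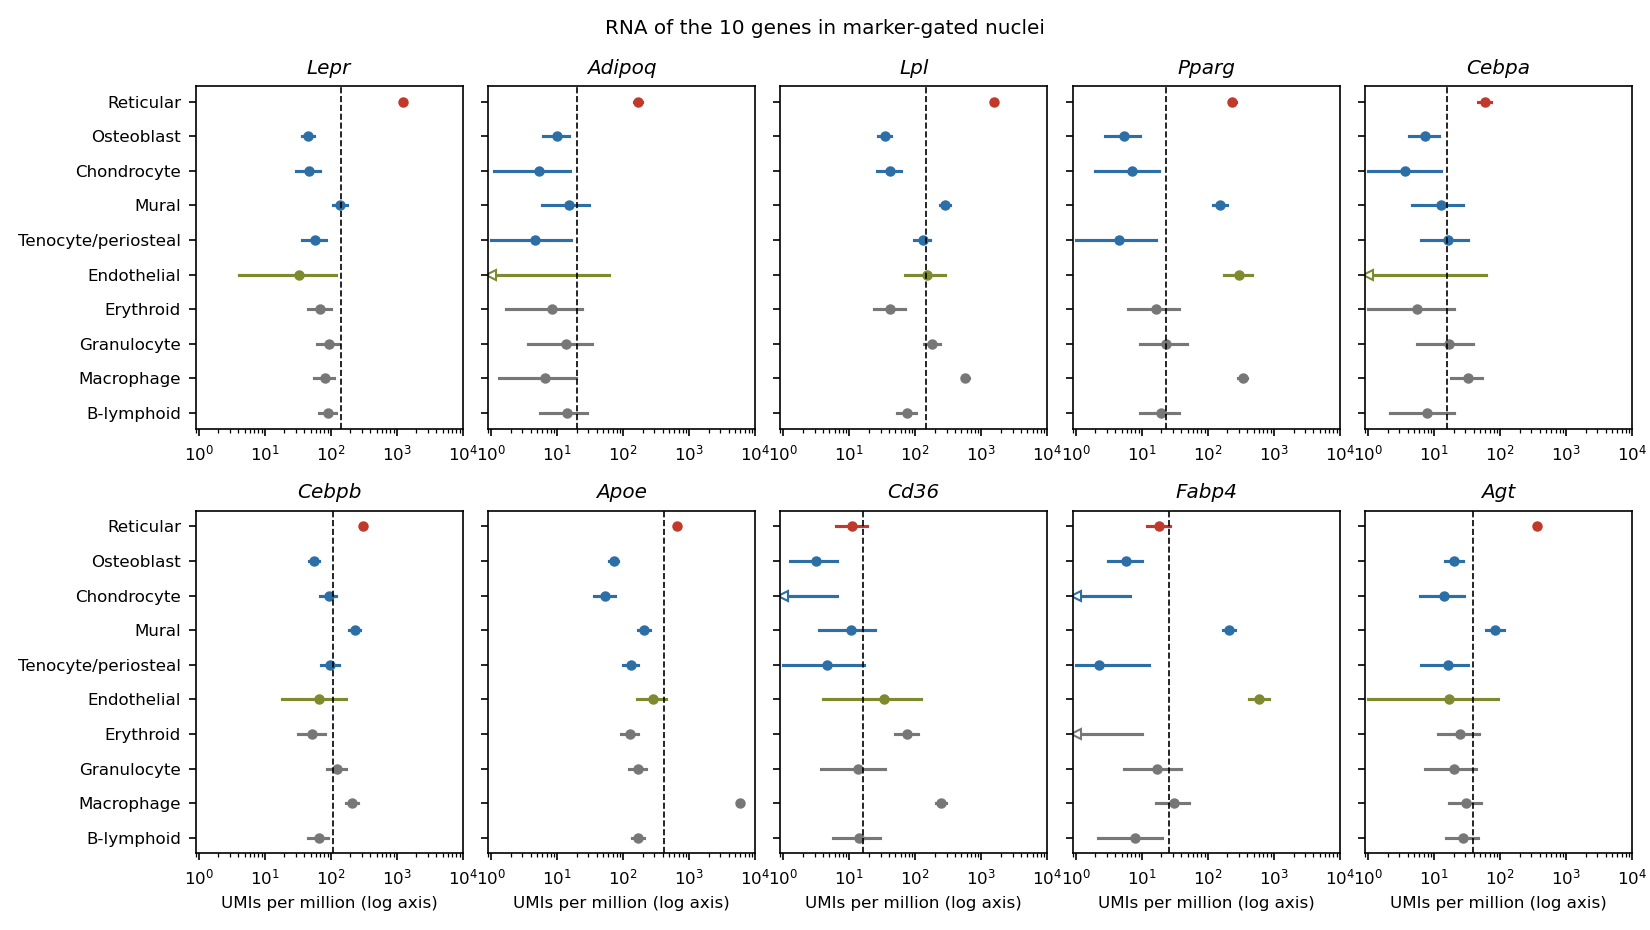
RNA of the 10 genes in each gate, in CPM on a log axis. Points are counts summed over a gate, bars exact Poisson 95% intervals, open arrowheads gates with 0 UMIs and the dashed line the level in free RNA, and the colours mark reticular (red), other stromal (blue), endothelial (green) and blood (grey) gates. Lepr (1239 CPM), Adipoq (168), Lpl (1548) and Agt (358) stand apart in reticular nuclei, Apoe (6015) and Cd36 (247) in macrophage nuclei, and Fabp4 is highest in endothelial (605) and mural (212) nuclei.

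Lepr, the receptor through which leptin signals, was at 1239 CPM (1181 to 1300) in reticular nuclei. In the other 9 gates it lay between 33.6 and 141 CPM, at or below the 144 CPM of free RNA, and each neighbour in that order overlapped the next. The log2 ratio of reticular to other stromal nuclei was 4.38 (4.18 to 4.59), and to blood nuclei 3.87 (3.63 to 4.14). Lepr was thus measured above free RNA in the reticular gate alone among the 10 gates.

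Adipoq, the adipokine adiponectin of mature fat cells, was at 168 CPM (147 to 192) in reticular nuclei and at 15 CPM or less in each other gate, below the 20.5 CPM of free RNA. Its log2 ratio to other stromal nuclei was 4.16 (3.66 to 4.75). Adipoq, usually taken as a mark of the differentiated adipocyte, had 228 UMIs in reticular nuclei, where the mature adipocyte markers other than Car3 had 16 UMIs in all.

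Lpl, the lipase that releases fatty acids from circulating lipoproteins, was at 1548 CPM (1482 to 1615) in reticular nuclei. Macrophage nuclei followed at 573 CPM (506 to 647) and mural nuclei at 284 CPM (238 to 337), each apart from its neighbours, and the osteoblast gate was lowest at 34.5 CPM. Free RNA held 144 CPM. The intervals of these 3 gates lay above free RNA, and the log2 ratio of reticular to other stromal nuclei was 4.30 (4.12 to 4.48).

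Agt, the precursor of angiotensin, was at 358 CPM (327 to 391) in reticular nuclei, at 85.5 CPM (61.1 to 116) in mural nuclei and at 30.6 CPM or less in every other gate, with 39.2 CPM in free RNA. The log2 ratio to other stromal nuclei was 3.71 (3.40 to 4.04). Mural nuclei were the only other gate above free RNA.

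Of the transcription factors, Pparg, the nuclear receptor that drives adipogenesis, was at 238 CPM (212 to 265) in reticular nuclei. It was at 339 CPM (288 to 397) in macrophage nuclei, at 302 CPM (179 to 478) in the 25 endothelial nuclei and at 154 CPM (120 to 194) in mural nuclei. The endothelial interval overlapped both neighbours, while the macrophage interval lay above the reticular one. In the other 6 gates Pparg was between 4.59 and 23.6 CPM, beside 23.1 CPM in free RNA, and reticular nuclei exceeded other stromal nuclei by 3.27 on the log2 scale (2.93 to 3.63). Without the mural gate on the other side, a choice made after seeing the data, this ratio was 5.36.

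Cebpa, the partner of Pparg late in adipogenesis, was sparse, with 80 UMIs or 59.0 CPM (46.8 to 73.5) in reticular nuclei, and macrophage nuclei at 32.8 CPM (18.4 to 54.1) overlapped that level. Cebpb, which acts earlier, was at 310 CPM (281 to 341) in reticular nuclei, and its interval met that of mural nuclei at 233 CPM (191 to 281). Macrophage nuclei held 212 CPM of Cebpb, and free RNA 108 CPM. The log2 ratios to other stromal nuclei were 2.79 (2.19 to 3.45) for Cebpa and 1.79 (1.58 to 2) for Cebpb. Both were thus higher in reticular than in other stromal nuclei, but neither set reticular nuclei apart from all gates.

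Apoe, the apolipoprotein that carries lipids and a prominent product of macrophages, was at 6015 CPM (5792 to 6244) in macrophage nuclei and second in reticular nuclei at 663 CPM (620 to 708). Free RNA held 424 CPM, and the other 8 gates between 53.7 and 286 CPM. Against other stromal nuclei the log2 ratio was 2.81 (2.63 to 2.99). Against blood nuclei Apoe was called lower, with a log2 ratio of -1.45 (-1.56 to -1.35). Macrophage markers were at 418 CPM in reticular nuclei, under the 731 CPM of free RNA, and in the 362 reticular nuclei with no macrophage marker UMI, a subset chosen after seeing the data, the Apoe ratio was 2.78. With free RNA subtracted it was 7.07, a ratio to the few counts left in other stromal nuclei.

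Cd36, a receptor for fatty acids, reached 247 CPM (204 to 297) in macrophage nuclei and 75.0 CPM (49.4 to 109) in erythroid nuclei. In reticular nuclei it had 15 UMIs in all, 11.1 CPM (6.2 to 18.3), under the 16.0 CPM of free RNA. Its call against other stromal nuclei, a log2 ratio of 1.53 (0.38 to 2.70), therefore compared levels at or below free RNA, and it was at 0.99 under a gate 2 times as strict. Against blood nuclei Cd36 was called lower, at -3.04 (-3.95 to -2.31).

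Fabp4, the fatty acid binding protein of adipocytes and capillary endothelium, was at 605 CPM (424 to 837) in endothelial nuclei and 212 CPM (172 to 258) in mural nuclei. In reticular nuclei it had 25 UMIs, 18.5 CPM (11.9 to 27.2), of which 12 lay in a single nucleus, and free RNA held 26.3 CPM. It was the 1 gene of the 10 not called against other stromal nuclei, with a log2 ratio of -0.72 (-1.43 to -0.11). That ratio turned with the nuclei compared, to 2.05 without the mural gate on the other side and to 0.54 with at most 10% mitochondrial UMIs, and it was -1.6 with a gate 2 times as strict and -2.26 in reticular nuclei with no macrophage marker UMI.

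Against blood nuclei 7 of the 10 genes were called higher, where 15.5% of 10355 genes were called higher and 22.0% lower. The 7 were Lepr, Adipoq, Lpl, Pparg, Cebpa, Cebpb and Agt, with log2 ratios between 1.11 (Pparg) and 3.96 (Adipoq). Apoe and Cd36 were the 2 called lower, and Fabp4 (0.37, -0.50 to 1.26) was not called. Macrophage nuclei accounted for much of the blood level: against the other blood gates they were higher by 5.25 for Apoe, 4.07 for Pparg, 2.90 for Cd36 and 2.64 for Lpl on the log2 scale. Mural nuclei were above osteoblast and osteocyte nuclei by 5.12 for Fabp4, 4.77 for Pparg, 3.04 for Lpl and 2.07 for Agt, and not called for Adipoq at 0.65 (-0.89 to 1.86).

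Genes whose pattern was most like that of Lepr were ranked by the Pearson correlation of log2(CPM + 10) over the 9 gates of at least 30 nuclei, among 935 genes with at least 200 reticular UMIs that are in no marker list and are none of the 10 genes. The highest were Vegfc (r = 0.991), a growth factor of lymphatic vessels, Fbln5 (0.977), an elastic fibre protein, Gdpd2 (0.974), Ccbe1 (0.970), which acts with Vegfc in lymphatic growth, and Tmem178 (0.966). Among the 10 genes Adipoq (0.973) and Agt (0.965) were nearest to Lepr, and Cd36 (-0.004) and Fabp4 (0.340) farthest. The ranked genes were admitted by their UMIs in the reticular gate, where Lepr is high. High r values were in part set by that filter. The gates share a library and 1 of the 9 is the reticular gate itself, so these are descriptions.

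The wider pathway was read from 6 lists, counted by the same rule against other stromal nuclei. Of adipogenic transcription factors and cofactors 6 of the 11 with enough UMIs were called higher and 0 lower (median log2 ratio 1.09). Ebf1, a factor of the stromal and fat lineages, led with 2.75, followed by the oxysterol receptor gene Nr1h3 with 2.07 and by Ebf2 with 1.90. Of leptin and adiponectin signalling 3 of 12 were higher and 0 lower (median 0.82), the phosphatase gene Ptpn1 (1.5), the insulin receptor substrate gene Irs1 (1.48) and Socs3 (1.09), the feedback inhibitor of leptin signalling, while the adiponectin receptor genes Adipor1 and Adipor2, at 0.25 and 0.97, were not called. Of the renin-angiotensin genes only 3 of 10 had enough UMIs, and Enpep, an angiotensin-cleaving peptidase (1.75), and Atp6ap2 (1.27) were higher.

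The lipid storage and uptake lists showed no common direction. Of lipid droplet and fat synthesis genes 4 of 14 were called higher and 4 lower (median -0.07), and the desaturase gene Scd1 (-1.60), the elongase gene Elovl6 (-1.41) and the lipase gene Mgll (-1.34) had the largest ratios of those called. Of lipoprotein and fatty acid uptake genes 2 of 13 were higher and 4 lower (median 0.07), with Angptl4, an inhibitor of lipoprotein lipase, at 3.36, the receptor gene Vldlr at -1.39 and Fabp3 at -1.33. Of the brakes on adipogenesis 0 of 6 were higher and 1 lower, Wnt10b at -1.70 (median -0.09). Beside these counts stand the 19.3% higher and 10.5% lower among all genes.

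Detection in single nuclei was compared at 1 depth. Each nucleus was thinned to 500 UMIs and shares are means over 50 draws, with exact Clopper-Pearson 95% intervals. At that depth 40.8% (37.1 to 44.6) of reticular nuclei had a UMI of Lpl, 36.3% (32.7 to 40.0) of Lepr, 23.8% (20.6 to 27.1) of Apoe and 13.4% (10.9 to 16.2) of Agt. Cebpb was seen in 11%, Pparg in 8.72%, Adipoq in 5.46% and Cebpa in 2.29%. B-lymphoid nuclei, in which the RNA of each of these genes lay below free RNA, were taken as the background. Their shares were 2.68% for Lpl, 2.18% for Lepr, 9.54% for Apoe, 0.479% for Agt, 2.39% for Cebpb, 1.23% for Pparg, 0.488% for Adipoq and 0.452% for Cebpa. Another gate would give another background: Lepr ran from 1.85% (osteoblast and osteocyte) to 5% (mural) over the gates other than reticular. Cebpb was nearly as frequent in macrophage (10.7%) and mural (9.34%) nuclei as in reticular ones, and rarer in the other gates. The median depths before thinning were 1410 UMIs in reticular and 1197 UMIs in B-lymphoid nuclei, and unthinned the reticular shares were 65.7% for Lpl, 65.2% for Lepr and 17.5% for Adipoq. Cd36 (0.586%) and Fabp4 (0.542%) were seen in no larger share of reticular nuclei than of B-lymphoid nuclei (1.05% and 0.802%) and are read as background there. In B-lymphoid nuclei Cd36 RNA was at 14 CPM, below free RNA, though the Cd36 promoter peak was at 6.65 CPM, above the 1.79 CPM of reticular nuclei.

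**Figure D2:**
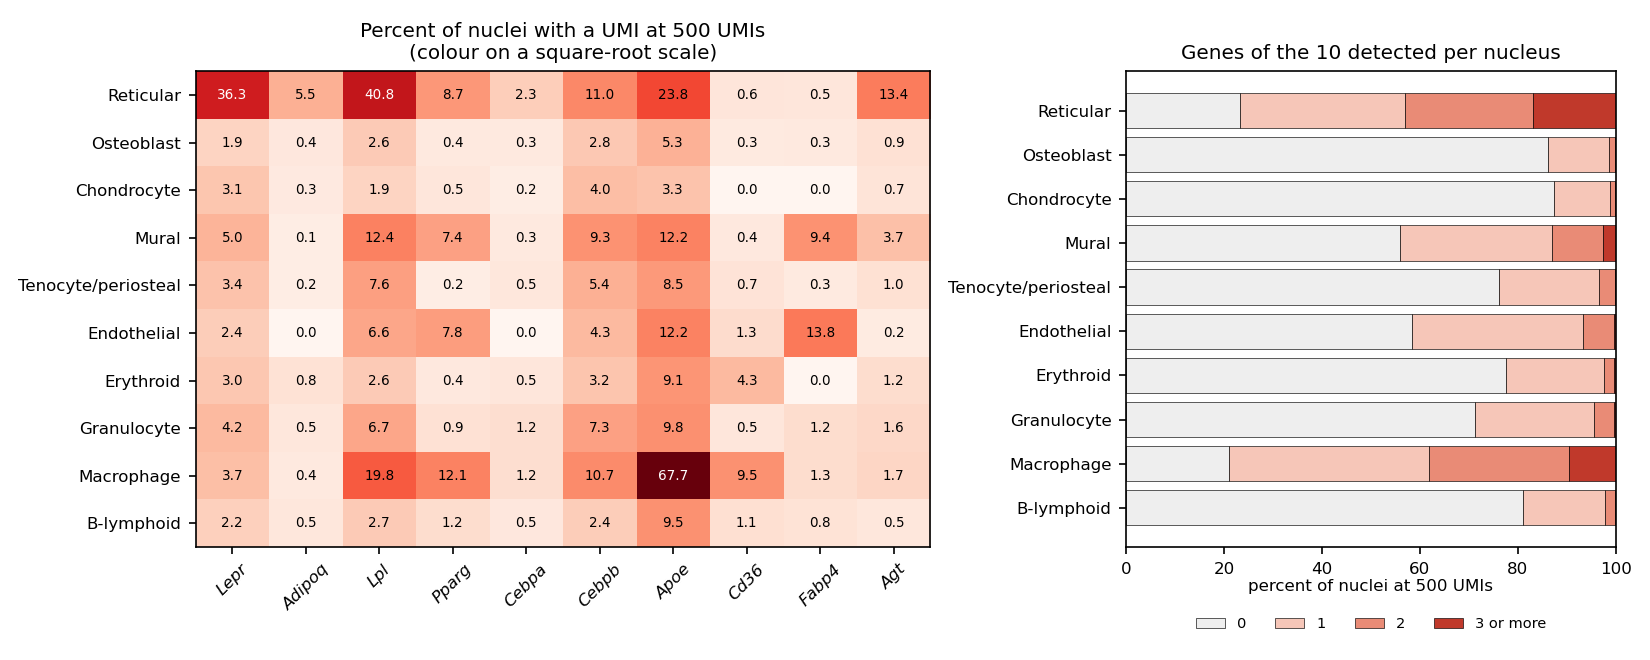
Detection of the 10 genes per nucleus after thinning to 500 UMIs. On the left, each cell is the percent of nuclei of a gate (rows) with a UMI of a gene (columns), and on the right bars split each gate by the number of the 10 genes detected. Reticular (43% with 2 or more) and macrophage nuclei (38.2%) hold the most nuclei with several genes, through Lepr and Lpl (36.3% and 40.8%) in the former and Apoe (67.7%) in the latter.

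Several of the genes were often found in one nucleus in 2 gates. At least 2 of the 10 genes were seen in 43% (39.3 to 46.8) of reticular nuclei and 38.2% (31.5 to 45.2) of macrophage nuclei, against 13.1% (8.16 to 20.4) of mural and 1.4% (0.349 to 3.24) of osteoblast and osteocyte nuclei. At least 3 were seen in 17% (14.2 to 19.9) of reticular and 9.54% (6 to 14.5) of macrophage nuclei. Both pairs of reticular and macrophage intervals overlapped. Lepr with another of the genes was seen in 26.1% (22.8 to 29.6) of reticular nuclei but in 2.89% (1.07 to 6.2) of macrophage, 1.16% (0.466 to 2.37) of other stromal and 1.61% (0.832 to 2.79) of blood nuclei. Another of the genes without Lepr was seen in 75.2% of macrophage and 40.5% of reticular nuclei. In macrophage nuclei Apoe was detected in 67.7%, Lpl in 19.8%, Pparg in 12.1% and Cd36 in 9.53%.

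Within reticular nuclei joint detection of Lepr with most of the other genes was near what the single shares would give. Lepr and Lpl were seen together in 16.7% (13.9 to 19.6), and the product of their single shares was 14.8%, a ratio of 1.12. The pairs of Lepr with the other genes that had at least 10 joint nuclei ran from a ratio of 1.10 (Apoe and Cebpb) to 1.24 (Adipoq). Adipoq had higher ratios with Agt (1.69, 9 joint nuclei), Cebpb (1.62, 7 nuclei), Apoe (1.5, 13 nuclei) and Lpl (1.42, 22 nuclei). With Pparg it lay at 0.967 on 3 joint nuclei, and without thinning at 1.47, with 6.27% of nuclei against a product of 4.26%. Without thinning, where depth varies, Adipoq had ratios of 1.74 with Agt, 1.85 with Cebpb, 1.5 with Apoe and 1.36 with Lpl. For each pair named here the product of the thinned shares lay within the interval of the joint share. These intervals are wide where few nuclei are joint, so independence is not shown.

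RNA levels were then compared between reticular nuclei with and without a UMI of Adipoq. Each nucleus was weighted into both sides by its share of draws with and without a thinned UMI, so the sides share nuclei. The counting intervals do not allow for this. Before thinning 120 nuclei held a UMI of Adipoq. The side with a thinned UMI (37 nuclei on average over the draws) held 2719 CPM of Lpl (2409 to 3058). The side without (649 on average) held 1452 CPM (1386 to 1520), a log2 ratio of 0.91 (0.72 to 1.09). Agt was at 626 against 336 CPM (0.91, 0.49 to 1.28), Apoe at 998 against 635 CPM (0.66, 0.34 to 0.95) and Cebpa at 117 against 54.3 CPM (1.16, 0.09 to 2.01, on 12 UMIs). Lepr itself differed less, at 1506 against 1217 CPM (0.31, 0.06 to 0.55), and Pparg had an interval that included 0 (0.25, -0.39 to 0.78). Reticular markers moved with this split, at 11046 CPM in nuclei with and 8164 CPM without Adipoq, as did depth, at 2729 against 1931 mean UMIs. The part of marker level and depth in these differences was not tested.

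The same weighting was used for Lepr, of which 447 reticular nuclei held a UMI before thinning. The side with a thinned UMI of Lepr (249 nuclei on average) differed from the side without (437) by 0.52 for Lpl (0.39 to 0.64), 0.44 for Adipoq (0.05 to 0.82), 0.43 for Pparg (0.10 to 0.75) and 0.42 for Agt (0.15 to 0.68) on the log2 scale. Cebpa, Cd36 and Fabp4 had intervals that included 0. Here too reticular markers were higher with Lepr, at 9717 against 7495 CPM, and the mean depth was 2171 against 1863 UMIs.

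Accessibility was the measure that the gates, made from RNA, did not use. The peak counts within the gene and 50 kb on each side were summed and given as CPM of the peak counts of the gate. Lepr (log2 ratio 1.74, 1.65 to 1.84), Lpl (1.63, 1.53 to 1.73) and Pparg (1.47, 1.41 to 1.54) were at least 2-fold more accessible in reticular than in other stromal nuclei, 3 of the 10 genes, where 4.48% of 27755 gene windows were. Cebpa (0.89), Agt (0.63), Adipoq (0.53), Apoe (0.39) and Cebpb (0.19) lay above 0 by less than 2-fold. Cd36 was at 0.17 with an interval that included 0 (-0.04 to 0.38), and it was at -0.56 with at most 10% mitochondrial UMIs and -0.91 with a gate 2 times as strict. The window of Fabp4 was lower, at -0.66 (-0.80 to -0.51). Within 1 kb of the listed starts 6 of the 10 genes were at least 2-fold more accessible, where 4.56% of 18907 genes were. They were Adipoq (3.25, 2.91 to 3.63), Apoe (1.70), Pparg (1.36), Lpl (1.25), Agt (1.24) and Lepr (1.08). At their starts Cebpa (0.29) and Cebpb (0.18) differed little, and Fabp4 was lower by more than 2-fold over its 2 peaks (-2.06). The Fabp4 peak at the start was not called, at -0.99 on 33 and 67 counts. The peak 1325 bases into the gene was lower, at -3.24 on 13 and 129 counts.

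**Figure D3:**
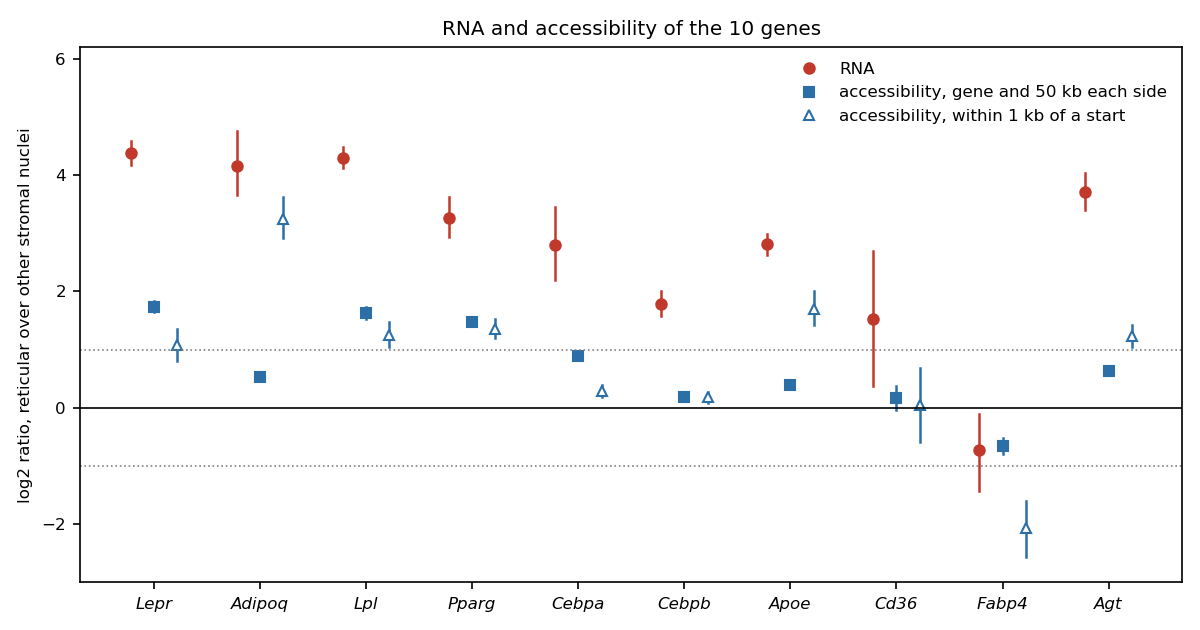
Log2 ratio of reticular over other stromal nuclei for RNA (red points), for accessibility of the gene and 50 kb each side (blue squares) and for accessibility within 1 kb of a start (open triangles), with 95% intervals of counting error. The dotted lines mark 2-fold. RNA ratios exceed the accessibility ratios for 9 of the 10 genes, Adipoq is the gene with the highest ratio at the start (3.25), and Fabp4 is below 0 on all 3 measures.

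Peak by peak, 173 of the 224 peaks in these windows had at least 50 counts in the compared nuclei together. Of these 84 (48.6%) were called higher in reticular nuclei and 17 (9.83%) lower, where 21.4% of 134233 peaks were higher and 29.9% lower. The median log2 ratio was 0.96, and -0.18 for all peaks. Against blood nuclei 76 of the 196 peaks with enough counts were higher, where 32.0% of 135769 peaks were. The higher peaks were unevenly placed: 26 of 38 around Pparg, 16 of 20 around Lepr, 11 of 26 around Cebpa, 8 of 11 around Lpl, 6 of 17 around Adipoq, 6 of 23 around Cebpb, 4 of 12 around Apoe, 3 of 9 around Agt, 2 of 10 around Fabp4 and 2 of 7 around Cd36. Lepr and Lpl had 0 lower peaks, and Adipoq and Fabp4 had 4 each.

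**Figure D4:**
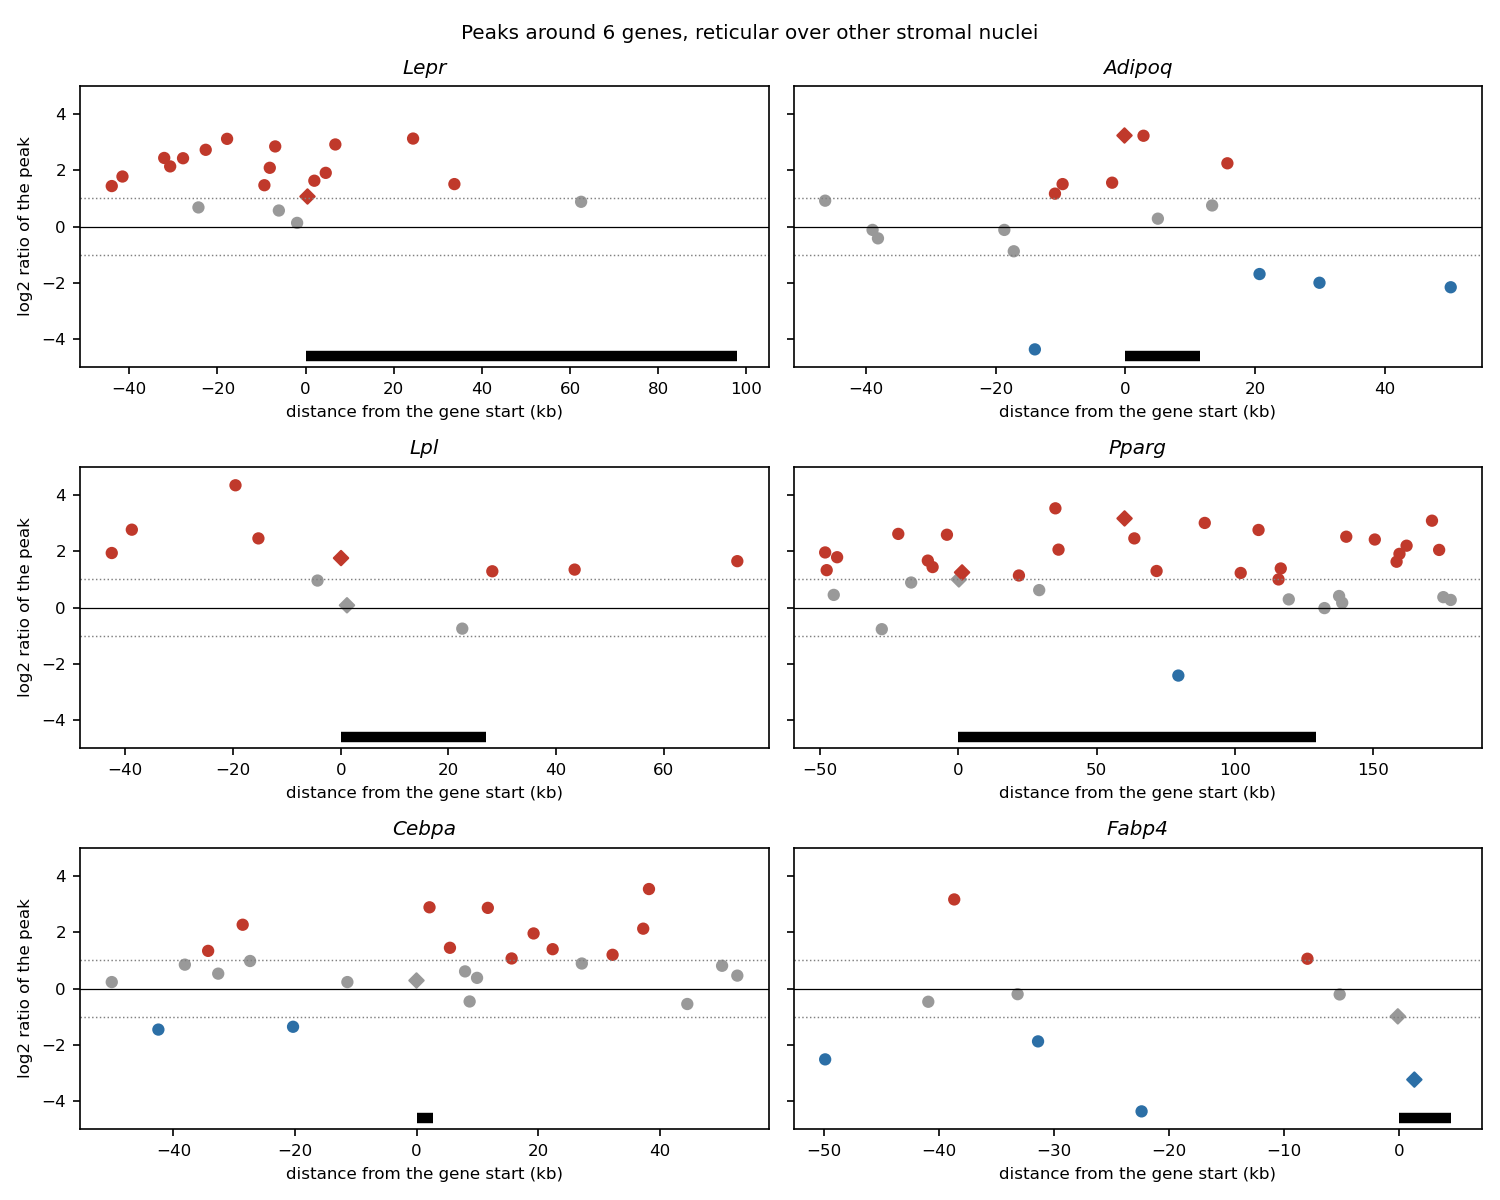
Peaks with at least 50 counts around 6 of the genes, by the distance of the peak centre from the gene start in kb (positive into the gene) and the log2 ratio of reticular over other stromal nuclei. Red and blue mark peaks at least 2-fold higher and lower, grey the others, diamonds peaks near a listed start, the black bar the gene and the dotted lines 2-fold. Around Lepr 16 of 20 and around Pparg 26 of 38 peaks are higher, whereas Adipoq has 6 higher and 4 lower and Fabp4 2 higher and 4 lower. The higher peaks of Pparg are spread over the whole window. Those of Lepr lie upstream and in the part of the gene nearest its start, with none farther along.

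The Lepr promoter peak, 13.0 CPM in reticular and 6.13 CPM in other stromal nuclei, differed by a log2 ratio of 1.08 (0.80 to 1.36). It was measured in every gate, between 2.07 CPM in B-lymphoid and 7.56 CPM in chondrocyte nuclei outside the reticular gate. At Adipoq the promoter peak itself had the highest ratio, 3.25 (2.91 to 3.63), at 27.2 CPM in reticular nuclei against 1.01 to 7.11 CPM in the other gates.

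The Lpl upstream peak had the highest ratio around any of the 10 genes, 4.35 (3.57 to 5.38), with 9.74 CPM in reticular and 0.46 CPM in other stromal nuclei. Macrophage nuclei, second in Lpl RNA, had 0.253 CPM at this peak but 15.2 CPM at the Lpl promoter peak, where reticular nuclei had 18.8 CPM. Of these 2 gates the promoter peak was thus high in both and the upstream peak in the reticular one. Accessibility near the start was not limited to them. Over the 2 peaks within 1 kb of it, reticular nuclei had 23.3 CPM and macrophage nuclei 21.6 CPM. Endothelial nuclei had 16.9 CPM there, chondrocyte 16 CPM and mural 15.3 CPM, against 5.02 CPM in osteoblast and osteocyte nuclei.

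Pparg has an upstream start and a downstream start, the latter giving the isoform enriched in fat cells. At the upstream start the peak was at 29.9 CPM in macrophage, 23.9 CPM in reticular, 23.1 CPM in endothelial and 19.9 CPM in mural nuclei, the 4 gates in which Pparg RNA was well above free RNA, and 13.0 CPM or less in the others. The peak upstream of the downstream start ends before that start. It was at 9.78 CPM in reticular, 4.53 CPM in mural and 0.633 CPM in macrophage nuclei. In granulocyte nuclei, where Pparg RNA was at 23.6 CPM, near free RNA, it was at 8.52 CPM. A separate peak closer to the downstream start had too few counts for a call, so no call is made for that start itself. The RNA counts do not tell the starts apart. The intron peak with the RUNX match had a log2 ratio of 3.53 (2.77 to 4.53), with 5.98 CPM in reticular and 0.498 CPM in other stromal nuclei.

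The Cebpa promoter peak was broad in use, at 75.1 CPM in reticular and 76.6 CPM in macrophage nuclei and a log2 ratio of 0.29 (0.19 to 0.39) to other stromal nuclei. A peak 37288 bases past the start, the distance of a known myeloid enhancer of Cebpa, was named after its values were seen. It was at 18.9 CPM in granulocyte, 14.8 CPM in macrophage and 3.42 CPM in reticular nuclei. Around Cebpb the peak of highest ratio, 35110 bases past the start and in an intron of A530013C23Rik, had 2.12 (1.33 to 3.07) on 66 and 15 counts, was higher still in macrophage nuclei (10.5 against 2.56 CPM) and held overlapping matches to the PPAR repeat, and the Cebpb promoter peak had 0.18.

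The Apoe downstream peak was at 22.1 CPM in reticular, 17.9 CPM in granulocyte and 17.2 CPM in macrophage nuclei, against 3.18 CPM in other stromal nuclei (2.79, 2.46 to 3.15). At the Apoe promoter macrophage nuclei had 22.0 CPM and reticular nuclei 10.6 CPM. The Agt upstream peak, with its C/EBP match, was at 38.4 CPM in reticular nuclei (1.79), and the Agt promoter was at 31.3 CPM in reticular, 17.4 CPM in mural and 13.9 CPM in osteoblast and osteocyte nuclei (1.24, 1.05 to 1.42). Agt RNA in that last gate was at 20.4 CPM, below free RNA.

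Cd36 and Fabp4, near free RNA in reticular nuclei, also had low promoter accessibility there. The Cd36 promoter peak, at a listed start 52900 bases into the gene, was at 1.79 CPM in reticular nuclei and at 19.2 CPM in macrophage nuclei. It did not follow Cd36 RNA in every gate: erythroid nuclei, second in that RNA, had 1.06 CPM at this peak. The peak of highest ratio, 11897 bases into the gene, had a log2 ratio of 2 on 45 and 11 counts. The Fabp4 promoter peak was at 1.28 CPM in reticular, 14.2 CPM in endothelial and 10.8 CPM in mural nuclei. The peak of highest ratio near Fabp4, at -38696 bases from its start in an exon of Fabp12, was higher in reticular than in other stromal nuclei (3.17) but higher still in granulocyte nuclei, at 14.1 against 4.31 CPM.

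C/EBP motif matches lay in 25 of the 84 higher peaks (29.8%), in 25% of the 28778 peaks higher in reticular nuclei genome-wide and in 15% of all 203502 peaks. RUNX matches lay in 17.9%, 17% and 13.6% of these sets, FOX in 5.95%, 6.95% and 5.05%, and EBF in 4.76%, 9.69% and 6.79%. The PPAR repeat was in 2 of the 84 peaks (2.38%) and in 0.487% of all peaks. The peaks around the 10 genes were near the share of all reticular-higher peaks for C/EBP, RUNX and FOX.

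Within reticular nuclei the accessibility around a gene was compared between nuclei with and without its thinned UMI. Nuclei were again weighted into both sides by their draws, so a ratio near 0 does not show equal accessibility. For Lpl it was 136 CPM (129 to 143) with and 108 CPM (103 to 113) without, a log2 ratio of 0.33 (0.23 to 0.43). Lepr, at 162 against 146 CPM (0.15, 0.06 to 0.25), and Apoe (0.10, 0.01 to 0.18) had smaller differences. For the other 7 genes the interval included 0, among them Adipoq (-0.03, -0.22 to 0.14) and Pparg (0.05, -0.06 to 0.16). Mean peak counts per nucleus were close on both sides for Lpl, at 38458 and 36931.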

How the data were processed

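RNA and ATAC were read from the same nuclei, and the authors deposited 1 matrix of raw counts over all barcodes, RNA UMIs per gene and ATAC counts per peak, made with cellranger-arc 2.0.0 on mm10 per the labels and file headers. A deposited peak list overlapped 201 of the 224 peaks used here and gave no counts. Counts held 35460453 UMIs and 191398837 ATAC counts in peaks. Identifiers of 99.8% of the genes were found in GENCODE, and peak positions lay within GRCm38, from which sequences were read.

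The 10 genes, the lists and the markers were chosen with earlier results of these data known, and the gate rule was set after seeing the data. Free RNA was the profile of barcodes with 100 to 400 UMIs and fewer than 500 peak counts. No mitochondrial limit and no doublet caller were applied, and nuclei in several gates were kept apart. With 1 library there was no test. A call was 2-fold with 20 UMIs, or 50 counts for a peak, set beside the share of all features called. On simulated counts the rule was checked for recovery only, with planted changes larger than 2-fold in genes well above 20 UMIs, and most were recovered. That check does not show how often unchanged genes are called at low counts. Named were all 10 genes, up to 3 called genes per list, the 5 genes most like Lepr, and per gene the peak of highest ratio (not reported here for Lepr and Cebpa) and the promoter peak. Other settings were a mitochondrial limit of 10%, other minimums, a stricter gate, Scrublet and Leiden clusters, run with Python 3.11.15, scipy 1.17.1, scanpy 1.11.5 and leidenalg 0.10.2. Lpl and Fabp4 have no entry in the promoter table.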

Additional observations from a re-analysis of the deposited data

How the results depend on the processing

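The number of the 10 genes called higher in RNA against other stromal nuclei was 9 and ran from 8 to 10 over 10 other settings. It was 8 with at most 10% mitochondrial UMIs (beside 24.1% of all genes), with a gate 2 times as strict (26.6%) and with free RNA subtracted (31.6%), and 10 without the mural gate (22.4%), an alternative chosen after seeing the data, where the main setting called 19.3%. The number of genes with at least 2-fold higher accessibility was 3 and became 6 over the gene and 3 kb upstream and 6 within 1 kb of the start. The percent of peaks called higher was 48.6 and became 64.4 over the gene and 3 kb upstream and 66.3 with at most 10% mitochondrial UMIs, where 30.4% of all peaks were higher. The share of reticular nuclei with Lepr and another of the genes was 26.1% and became 53.9% at 1000 UMIs, 60.5% without thinning, 32.4% with at most 10% mitochondrial UMIs and 33.2% with the stricter gate. The cause of the last 2 was not tested. Of 100 RNA ratios of single genes 27 moved beyond their counting interval, and of 60 accessibility ratios 31, with 0 called ratios changing sign. The mitochondrial limit left 362 reticular and 107 other stromal nuclei. Sparse genes such as Cebpa, Cd36 and Fabp4 are limited by depth. No paired analysis was possible because there is 1 sample of each kind, and for the same reason no replicate could be left out.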
